A study of Homo sapiens with 27 samples.

Results

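The genes described here are 10 members of the TGF-beta and SMAD pathway: the ligands TGFB1 and TGFB2, the receptors TGFBR1 and TGFBR2, the signal-carrying SMAD3, the inhibitory SMADs SMAD6 and SMAD7, the co-repressor SKIL, and PMEPA1 and TGFBI, both known as genes that TGF-beta switches on. They were chosen by gene symbol from the 60683 genes in the tables. All 10 are among the 16173 genes with enough counts to be tested. The cells were MCF10DCIS.com, an established human breast line that descends from HRAS-transformed MCF10A cells and serves to model ductal carcinoma in situ. The 7 control libraries came from untreated cells. Calcium oxalate crystals were given at 0.1 mg/mL in 5 forms, with 4 libraries of each. COM is calcium oxalate monohydrate as plates. The other 4 forms are the dihydrate, in the shapes of dumbbells (DB), of spheres (SPH), and of bipyramids that were thick (TK) or thin (TN). Every flask was seeded with 500000 cells 6 h before crystals were added, and how long the cells then spent with crystals is not stated in the labels. All groups come from 1 cell line. The labels do not say whether the libraries in a group were separate cultures, and the p-values then measure only the spread between libraries, which may be technical.

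TGF-beta ligands bind TGFBR2, which then activates TGFBR1, and the active receptor pair phosphorylates SMAD2 and SMAD3. These join SMAD4, enter the nucleus and change transcription, while SMAD6 acts mainly on the related BMP branch as an inhibitor and SMAD7 blocks the TGF-beta receptors. SKIL (SnoN) holds SMAD complexes in a repressed state, and PMEPA1 is a membrane protein that sequesters receptor SMADs, so several genes induced by the pathway also restrain it. In breast epithelium the pathway is known for slowing the growth of normal cells and for promoting invasion and matrix production in carcinoma cells.

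Total counts ran from 13115649 to 38672448 per library, with a median of 19251210. Serial numbers in the library names divide the 27 libraries into 3 sets: numbers 1 to 10 (set 1), 11 to 22 (set 2) and 23 to 27 (set 3). What separates the sets is not stated in the labels. Set 1 holds 10 libraries, set 2 holds 12 and set 3 holds 5. All 4 TK libraries and 4 of the 7 controls lie in set 2, which has 1 library of each other form. Library set was therefore an additive term in the model. The TK comparison rests on the set 2 controls and, through the set term shared by all groups, on the other libraries. For TGFB2 the log2 change in TK was 0.02 in that model and 0.22 against the set 2 controls alone. The values were 0.39 and 0.46 for SMAD6, and 0.14 and 0.06 for PMEPA1. All 10 epithelial markers had a median of at least 1 normalised count per 1000000 counts (CPM) in every group. The summed epithelial level was 12912 to 15495 CPM in controls, 13698 to 18437 in COM, 13708 to 19845 in DB, 13792 to 15081 in SPH, 11229 to 11751 in TK and 11101 to 14977 in TN. Among markers of other cells, 2 of 8 fibroblast markers (COL1A1 at 10.4 and PDGFRA at 1.02 CPM), 2 of 6 leukocyte markers (CD68 at 7.57 and CD14 at 4.04 CPM), 1 of 5 endothelial markers (PECAM1 at 7.86 CPM) and 2 of 6 hepatocyte markers (1.36 and 125 CPM) had a median of at least 1 CPM. The leukocyte genes PTPRC and CD163 and the fibroblast genes DCN, LUM, COL1A2 and COL3A1 had a median of 0 CPM. The summed levels of the leukocyte list were 8.09 to 21.3 CPM in controls and 6.93 to 7.86 in TK, and those of the endothelial list 2.17 to 15.1 and 2.71 to 3.55. Summed fibroblast markers lay between 8.73 and 15 CPM in all libraries. The part of these levels in the results was not tested. Libraries TN B and TN C stood apart. TN B held 1037 CPM of 6 hepatocyte markers (at most 204 in any other library), of which ALB gave 659, and 71.9 CPM of 6 leukocyte markers (at most 28.1 in any other). TN C had a mean fragment length of 297.0 nt, whereas the rest of set 2 reached at most 243.2 nt and set 1 started at 257.8 nt. Calls that rest on TN are given below with each of these libraries left out.

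In untreated cells the members spanned a wide range of transcript levels, compared here as CPM per kilobase of transcript. SMAD3 was the highest at 47.2 ± 4.28 (SD, n = 7), followed by TGFBR2 at 36.0 ± 4.14, and the ranges of these neighbours touched (40.4 to 54.3 and 28.7 to 41.2). PMEPA1 at 12.1 ± 2.32 and TGFB1 at 9.8 ± 1.47 overlapped each other, and neither reached the level of TGFBR2. SKIL followed at 6.21 ± 0.797. TGFBI overlapped SKIL above it and SMAD7 below it: TGFBI at 4.93 ± 3.22 and SMAD7 at 4.65 ± 0.49 lay close together, and TGFBI ran from 2.06 to 9.25. TGFBR1 at 2.61 ± 0.243 and TGFB2 at 2.14 ± 1.07 also overlapped, and SMAD6, whose range reached that of TGFB2, was the lowest at 1.41 ± 0.335. The inhibitory SMADs were thus rare transcripts beside SMAD3, and SMAD6 rested on 38 to 158 counts per library against 3062 to 9962 for SMAD3.

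The 4 members that passed the test against controls in at least 1 form were SMAD6, PMEPA1, SKIL and TGFBR1, and the bases before their start sites are shown because these are the genes whose transcripts moved. The sequences are RefSeq promoters on GRCh38.p14, written on the gene's strand from 5′ to 3′. Capitals mark matches to 3 SMAD-type motifs searched on both strands: the palindrome GTCTAGAC, CAGACA and GGCGCC, none of which contains another. SMAD6 lies on chromosome 15 (66702228 to 66782848, plus strand), PMEPA1 on chromosome 20 (57648392 to 57711536, minus strand), SKIL on chromosome 3 (170357678 to 170396835, plus strand) and TGFBR1 on chromosome 9 (99104038 to 99154192, plus strand) in GENCODE 29. The SMAD6 window is chr15:66701986-66702235 on the plus strand, and its last 8 bases are exon in that annotation. The PMEPA1 window is chr20:57711537-57711722 on the minus strand and the SKIL window is chr3:170357465-170357677 on the plus strand, both ending where an exon of the gene begins. The TGFBR1 window is chr9:99104863-99105112 on the plus strand, and 24 of its bases are exon of another transcript.
SMAD6: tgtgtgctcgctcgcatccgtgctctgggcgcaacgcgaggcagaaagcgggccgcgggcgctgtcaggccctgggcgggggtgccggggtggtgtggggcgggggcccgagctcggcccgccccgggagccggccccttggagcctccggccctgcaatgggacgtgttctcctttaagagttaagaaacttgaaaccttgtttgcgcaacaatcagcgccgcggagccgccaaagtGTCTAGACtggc
PMEPA1: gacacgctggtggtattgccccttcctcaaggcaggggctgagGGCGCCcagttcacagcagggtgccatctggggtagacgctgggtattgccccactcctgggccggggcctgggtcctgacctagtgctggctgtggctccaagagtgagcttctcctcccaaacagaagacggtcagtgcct
SKIL: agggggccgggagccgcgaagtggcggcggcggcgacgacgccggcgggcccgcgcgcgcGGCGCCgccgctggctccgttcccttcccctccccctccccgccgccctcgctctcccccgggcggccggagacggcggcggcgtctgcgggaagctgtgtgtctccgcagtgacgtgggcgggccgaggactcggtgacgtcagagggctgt
TGFBR1: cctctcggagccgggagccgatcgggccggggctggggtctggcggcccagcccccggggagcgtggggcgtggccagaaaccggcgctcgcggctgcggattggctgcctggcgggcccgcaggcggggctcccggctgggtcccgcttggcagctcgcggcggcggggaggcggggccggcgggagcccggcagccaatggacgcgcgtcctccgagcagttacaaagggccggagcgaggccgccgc
The palindrome stood at -12 to -5 from the SMAD6 start and was found in 55 of 27305 first-listed promoters of 300 bases (0.2%). GGCGCC stood at -207 to -202 in PMEPA1 and at -190 to -185 in SKIL, and 18.97% of promoters hold it. CAGACA is in 16.83% of promoters and in none of these 4 windows. At the first-listed start, with all 300 bases searched, 1 of the 10 members held the palindrome, 1 held CAGACA (TGFB2) and 4 held GGCGCC (SMAD3, SKIL, PMEPA1 and TGFBI). Other listed starts also held CAGACA in TGFBR1, SMAD3 and PMEPA1, and GGCGCC in TGFBR1. A match describes letters in the window and does not show that a SMAD binds there.

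Against untreated cells, members of the pathway passed the test in COM, DB and TN. Calls were made where the p, adjusted by Benjamini-Hochberg over all genes tested, was under 0.05 by edgeR's quasi-likelihood test with library set in the model. In COM 3 of the 10 members rose (PMEPA1, SKIL and TGFBR1) and none fell, where 6.36% of all genes tested were called, 3.94% higher and 2.42% lower. In DB 2 members rose (TGFBR1 and SKIL) and 1 fell (SMAD6), where 10% of all genes were called, 5.92% higher and 4.1% lower. In TN 2 members rose (TGFBR1 and PMEPA1) and none fell, where 11.7% of all genes were called, 6.84% higher and 4.88% lower. No member was called in SPH, where 0.111% of all genes were called: 3 members had an unadjusted p under 0.05 there and DESeq2 called 1. No member was called in TK either, although 15.4% of all genes were (8.04% higher and 7.33% lower): 2 members had an unadjusted p under 0.05 and DESeq2 called 0. The median log2 change of the 10 members was 0.26 in COM, 0.06 in DB, 0.01 in SPH, 0.01 in TK and 0.15 in TN. Over all genes tested it lay between -0.02 and 0 in these 5 comparisons. A joint test of any difference between the 6 groups called 6 members (SMAD3, SMAD6, SKIL, PMEPA1, TGFBR1 and TGFBI), where 23.2% of all genes were called. The 5 comparisons share the 7 control libraries.

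**Figure D1:**
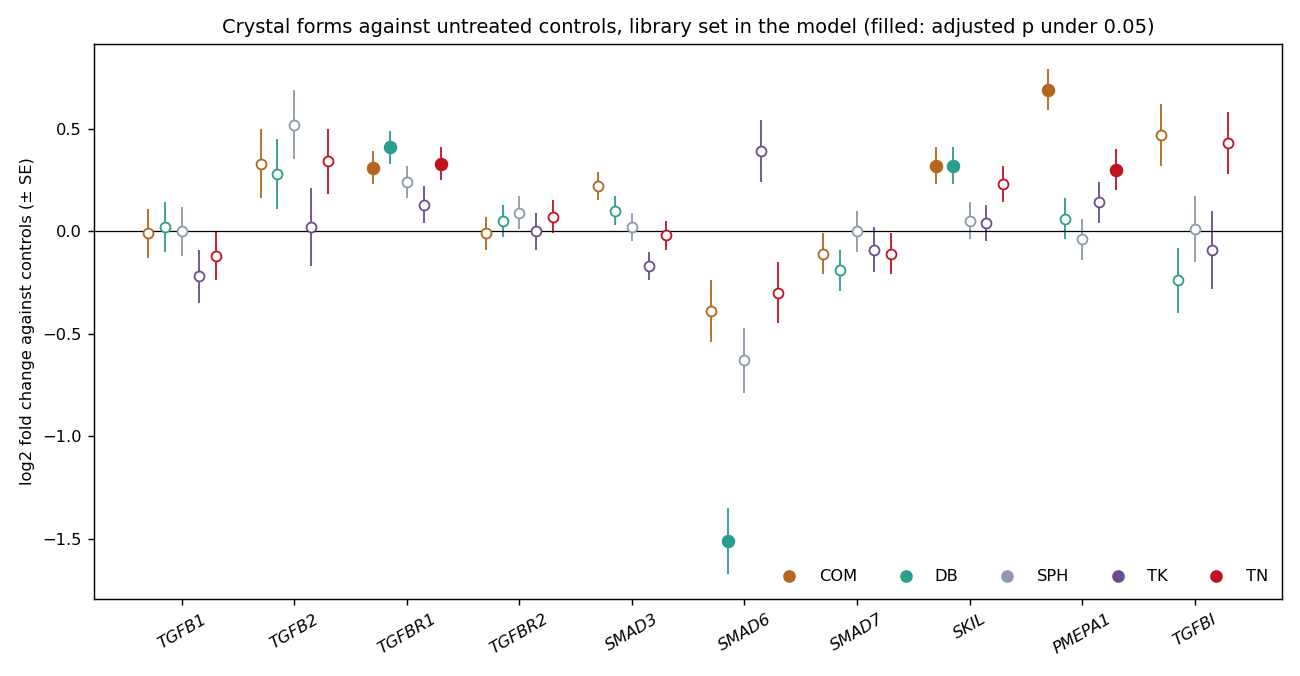
Log2 fold change of each of the 10 members (x axis) against untreated controls for the 5 crystal forms (colours), from the model with library set; bars are ± 1 SE and filled points have an adjusted p under 0.05. SMAD6 in DB lies lowest at -1.51 and PMEPA1 in COM lies highest at 0.69. TGFB1, TGFB2, TGFBR2, SMAD3, SMAD7 and TGFBI have no filled point.

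SMAD6, the inhibitory SMAD of the BMP branch, fell in cells given dumbbells. Its level was 3.61 to 6.15 CPM in the 7 controls with a median of 5.08 CPM. The DB libraries A to D had 1.1, 2.14, 2.17 and 1.76 CPM. Every DB library lay below every control, which no other member did in any form, and the libraries of DB and of controls did not overlap for 3.79% of all genes tested. The log2 change was -1.51 (SE 0.16, adjusted p = 1.5e-06), that is 0.351 of the control level. It was -1.66, -1.06 and -1.80 within sets 1, 2 and 3, and it passed the test with each of the 27 libraries left out in turn, at -1.66 to -1.33. With the set 2 libraries alone the change was -1.05 (adjusted p = 0.15). In bulk RNA, fewer cells with SMAD6 transcripts and fewer transcripts per cell cannot be told apart.

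The other crystal forms placed SMAD6 at other levels. In SPH the 4 libraries had 2.89, 3.14, 3.22 and 3.75 CPM, of which 3 lay below the lowest control. The SPH change was -0.63 (SE 0.16, adjusted p = 0.19), which edgeR did not call and DESeq2 did (adjusted p = 0.028). COM libraries had 3.4, 4.42, 3.35 and 4.3 CPM (change -0.39, SE 0.15, adjusted p = 0.14). TN libraries had 3.81, 4.05, 3.85 and 4.63 CPM (change -0.30, SE 0.15, adjusted p = 0.20). In TK the libraries had 6.06, 6.57, 7.05 and 5.14 CPM, of which 2 lay above the highest control. The TK change was 0.39 (SE 0.15, adjusted p = 0.091), and it was called when DB A or DB C was left out (adjusted p = 0.043 and 0.047).

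The differences in SMAD6 between crystal forms were themselves tested at the same dose. In order of group mean the levels were DB at 1.79, SPH at 3.25, COM at 3.87, TN at 4.09, control at 4.89 and TK at 6.2 CPM. DB was below each other form. On the log2 scale DB minus SPH was -0.88 (SE 0.18, adjusted p = 0.029), COM minus DB was 1.12 (SE 0.18, adjusted p = 0.0037), DB minus TN was -1.21 (SE 0.17, adjusted p = 0.00023; -1.20 without TN B and without TN C, both called) and DB minus TK was -1.89 (SE 0.19, adjusted p = 1e-06). With the replicate letter as a block in place of the set, DB minus SPH was -0.88 (adjusted p = 0.15) and not called. TK was also above COM and SPH, since COM minus TK was -0.78 (SE 0.19, adjusted p = 0.0062) and SPH minus TK was -1.02 (SE 0.19, adjusted p = 0.0026). TK was above TN by 0.69 with a 95% interval of 0.3 to 1.07 (adjusted p = 0.14), which did not pass. SPH, COM and TN, neighbours in the order, were not told apart by the test.

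SMAD7, the inhibitory SMAD of the TGF-beta receptors, passed no test. Its 7 controls ran from 9.32 to 13.3 CPM with a median of 11.6 CPM, and the 20 crystal libraries ran from 8.73 to 13.2 CPM. Its lowest change was in DB, at -0.19 with a 95% interval of -0.41 to 0.02 (adjusted p = 0.24). SMAD6 and SMAD7, both inhibitory SMADs, therefore had different values in DB, -1.51 and -0.19, a difference between genes that was not tested.

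PMEPA1, which sequesters receptor SMADs and is itself induced by TGF-beta, rose in COM. Set 1 controls had 41.2 and 41.9 CPM, set 2 controls had 22.2 to 28.5 CPM and the set 3 control had 43.9 CPM. COM A and B in set 1 had 72.5 and 75.5 CPM, COM C in set 2 had 36.6 CPM and COM D in set 3 had 74.3 CPM. Each COM library lay above every control of its own set, whereas COM C lay within the range of all 7 controls. The log2 change with set in the model was 0.69 (SE 0.10, adjusted p = 4.2e-05), a fold of 1.61, and it was 0.83, 0.55 and 0.76 within sets 1, 2 and 3. The call held with each of the 27 libraries left out in turn, at 0.65 to 0.73. COM was also above each other form: by 0.63 against DB (SE 0.10, adjusted p = 0.0048), 0.72 against SPH (SE 0.11, adjusted p = 0.00067), 0.55 against TK (SE 0.12, adjusted p = 0.003) and 0.39 against TN (SE 0.10, adjusted p = 0.028). The difference from TN was 0.41 without TN B (adjusted p = 0.052) and 0.29 without TN C (adjusted p = 0.075), so it was not called without either. With the replicate letter as a block in place of the set, the differences from DB, SPH and TN were not called. They were then 0.63 (adjusted p = 0.3), 0.73 (adjusted p = 0.098) and 0.39 (adjusted p = 0.23). COM differs from the other forms in both hydrate and shape, and these cannot be told apart here. Where reads were counted without regard to strand, those of the antisense gene NKILA, whose exons overlap PMEPA1, could not be told apart from it. NKILA had a median of 10 counts per library against 846 for PMEPA1.

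In TN the PMEPA1 call depended on which libraries were used. TN A and B in set 1 had 67.0 and 57.4 CPM, TN C in set 2 had 24.2 CPM and TN D in set 3 had 51.3 CPM. The TN libraries of sets 1 and 3 lay above their controls, and TN C lay among the set 2 controls. The change was 0.30 (SE 0.10, adjusted p = 0.043), and 0.58, -0.05 and 0.23 within sets 1, 2 and 3. The TN change differed between sets 2 and 1 by -0.63 (SE 0.16, adjusted p = 0.032), a contrast in which 5.81% of all genes were called. Set 2 holds 1 TN library, TN C, so this value sets 1 library that stands apart in fragment length against TN A and B, each relative to the controls of its set, and its error comes from the spread in other groups. Without TN C the change was 0.41 (adjusted p = 0.0087), without TN B 0.28 (adjusted p = 0.077) and without TN A 0.19 (adjusted p = 0.31). With TN C counted in set 1 it was 0.18 (adjusted p = 0.52), and with the replicate letter as a block in place of the set 0.54 (adjusted p = 0.081). The call was lost with 17 of the 27 libraries left out singly. In DB, SPH and TK the PMEPA1 changes of 0.06, -0.04 and 0.14 did not pass, and the 4 TK libraries were close together at 25.3 to 26.7 CPM.

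**Figure D2:**
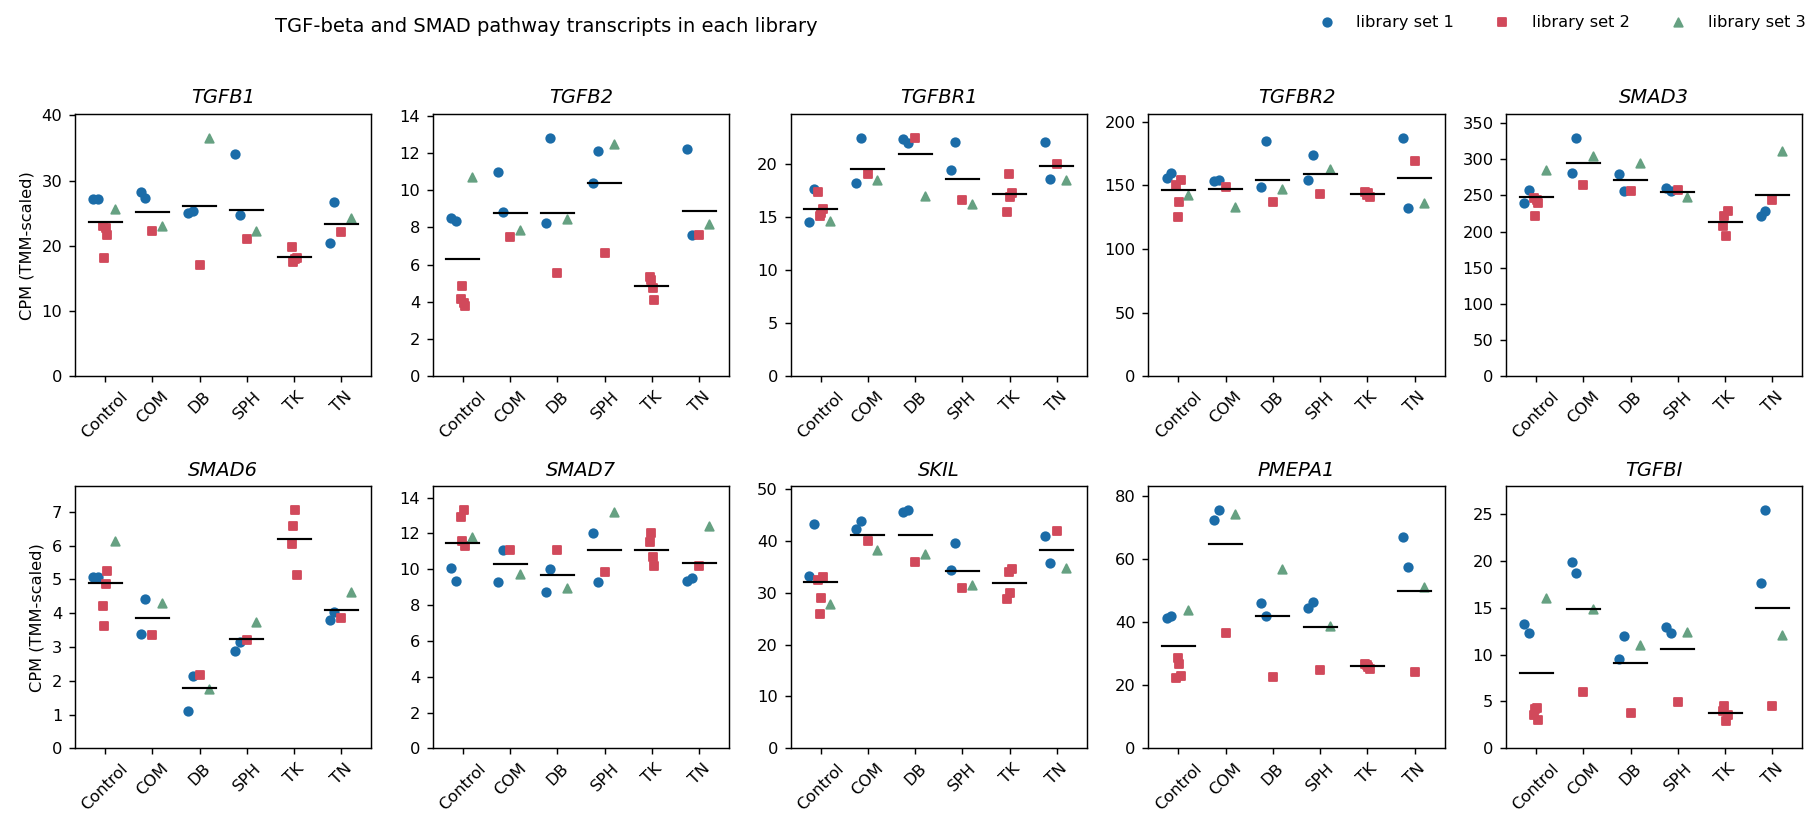
Level of each member in each of the 27 libraries (y axis, CPM scaled by TMM, starting at 0) by group; symbols give the library set and the black line is the mean of all libraries of a group. The 4 DB libraries lie below all controls for SMAD6, and for PMEPA1, TGFB2 and TGFBI the set 2 libraries (squares) lie low in controls and crystal groups.

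TGFBR1, the type I receptor that phosphorylates SMAD2 and SMAD3, rose in COM, DB and TN. The controls ran from 14.5 to 17.6 CPM with a median of 15.4 CPM. COM libraries had 18.2, 22.4, 19 and 18.5 CPM and TN libraries had 22, 18.6, 20 and 18.5 CPM. All libraries of both forms lay above all controls. The share of all genes whose libraries did not overlap the controls, in either direction, was 3.33% for COM and 2.93% for TN. DB libraries had 22.3, 21.9, 22.4 and 17 CPM, and DB D alone lay within the control range. The changes were 0.31 in COM (SE 0.08, adjusted p = 0.023), 0.41 in DB (SE 0.08, adjusted p = 0.0025) and 0.33 in TN (SE 0.08, adjusted p = 0.009), folds of 1.24, 1.33 and 1.26. Each was positive within all 3 sets: 0.33, 0.26 and 0.35 in COM, 0.47, 0.50 and 0.22 in DB, and 0.34 in each set in TN. The DB call held with every library left out in turn, the TN call was lost without TN A (adjusted p = 0.064), and the COM call was lost without control A, COM B, COM C or COM D (adjusted p = 0.068 to 0.10). With the replicate letter as a block in place of the set, the COM change was 0.28 (adjusted p = 0.16) and the TN change 0.30 (adjusted p = 0.10). Without TN B the TN change was 0.38 (adjusted p = 0.005) and without TN C 0.32 (adjusted p = 0.029). SPH at 0.24 (adjusted p = 0.54) and TK at 0.13 (adjusted p = 0.35) did not pass, and no pair of forms differed in TGFBR1. The interval of the difference between DB and TK, the farthest apart, was 0.07 to 0.49 (adjusted p = 0.057).

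TGFBR2, the type II receptor that binds the ligand, did not pass in any form. It had 146 ± 12.4 CPM in controls (SD, n = 7), 147 ± 9.59 in COM, 155 ± 21.1 in DB, 159 ± 12.9 in SPH, 143 ± 1.87 in TK and 156 ± 26.5 in TN (SD, n = 4 each). Its changes lay between -0.01 and 0.09 with SE of 0.08 to 0.09, and the widest 95% interval limits were -0.19 and 0.27. The receptor pair thus had different values in DB, with 0.41 for TGFBR1 and 0.05 for TGFBR2.

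SKIL, the SMAD co-repressor that TGF-beta also induces, rose in COM and DB. Its controls ran from 25.8 to 43.2 CPM with a median of 32.4 CPM, and control B at 43.2 CPM stood above the other 6, which reached 33.3 CPM. COM libraries had 42.3, 43.9, 40.0 and 38.3 CPM and DB libraries had 45.5, 45.9, 35.9 and 37.4 CPM. All 8 lay above the controls other than B. The changes were 0.32 in COM (SE 0.09, adjusted p = 0.022) and 0.32 in DB (SE 0.09, adjusted p = 0.019), each a fold of 1.25, and both calls were lost with 5 of 27 libraries left out singly. For COM these were control A, control G, COM B, COM C and COM D, at 0.29 to 0.33, and for DB control A, control G, DB A, DB B and DB D, at 0.30 to 0.32. With the replicate letter as a block in place of the set, the changes were 0.30 in COM (adjusted p = 0.14) and 0.30 in DB (adjusted p = 0.12), and neither was called. TN libraries had 40.9, 35.8, 41.8 and 34.7 CPM (change 0.23, SE 0.09, adjusted p = 0.085). The TN value moved with the libraries used: it passed without TN B (0.30, adjusted p = 0.029) or without control B (0.30, adjusted p = 0.017), and it was 0.11 without TN C (adjusted p = 0.48) and -0.01 with set 1 only (adjusted p = 0.98). SPH at 0.05 and TK at 0.04 did not pass, with 95% intervals of -0.13 to 0.24 and -0.15 to 0.23.

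**Figure D3:**
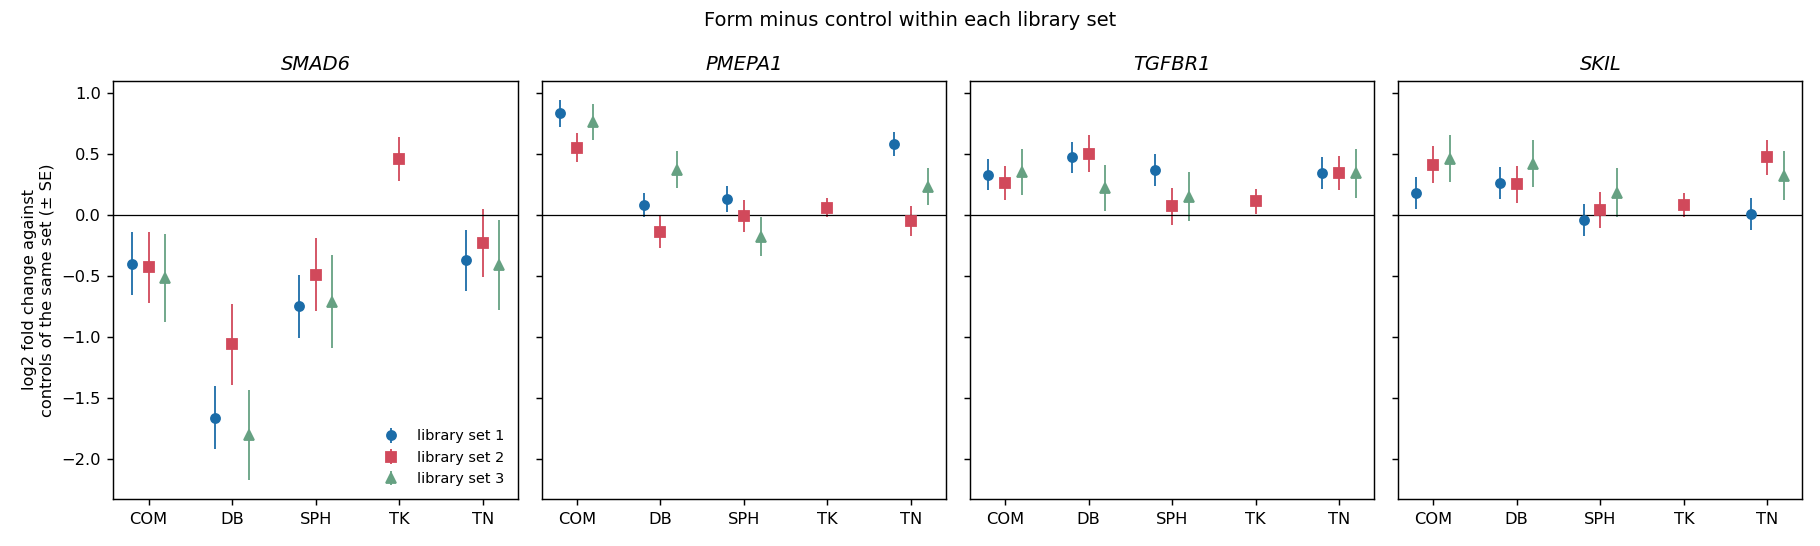
Log2 fold change of SMAD6, PMEPA1, TGFBR1 and SKIL (panels) for each crystal form (x axis) against the controls of the same library set; bars are ± 1 SE of the fit with a mean per group and set. SMAD6 in DB is below 0 and TGFBR1 in COM, DB and TN is above 0 in all 3 sets, while PMEPA1 in TN is 0.58 in set 1 and -0.05 in set 2.

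SMAD3, the receptor SMAD that carries the TGF-beta signal to the nucleus, differed between forms more than from controls. Its controls ran from 221 to 285 CPM with a median of 244 CPM. COM libraries had 281, 329, 264 and 305 CPM and TK libraries had 208, 221, 194 and 228 CPM. The ranges of COM and TK did not meet, but they mix form with library set. Only COM C, at 264 CPM, is in the set that holds all TK libraries, and it lay above each of them. The share of all genes whose COM and TK ranges do not meet was not counted. Against controls the COM change of 0.22 (SE 0.07, adjusted p = 0.064) and the TK change of -0.17 (SE 0.07, adjusted p = 0.12) did not pass. COM was above TK by 0.39 (SE 0.09, adjusted p = 0.0035), and DB, with 256 to 294 CPM, was above TK by 0.27 (SE 0.09, adjusted p = 0.031). The changes in DB, SPH and TN against controls were 0.10, 0.02 and -0.02. TN D, at 311 CPM, stood above the other TN libraries at 222 to 243 CPM.

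TGFBI, a secreted matrix protein named for its induction by TGF-beta, differed more between library sets than between forms. Controls had 12.3 and 13.3 CPM in set 1, 2.99 to 4.29 CPM in set 2 and 16 CPM in set 3. COM libraries had 19.9, 18.7, 5.97 and 14.9 CPM, and TN libraries had 17.6, 25.4, 4.57 and 12.1 CPM. COM and TN lay above their controls in sets 1 and 2 and below the control in set 3. The changes of 0.47 in COM (SE 0.15, adjusted p = 0.066) and 0.43 in TN (SE 0.15, adjusted p = 0.065) did not pass, although both had an unadjusted p under 0.05. DB, at 9.58, 12, 3.82 and 11 CPM, had a change of -0.24 (SE 0.16, adjusted p = 0.38) and was below TN, with DB minus TN at -0.67 (SE 0.17, adjusted p = 0.012). The highest value, 25.4 CPM, was in TN B, the library with the hepatocyte and leukocyte transcripts, and their part in the result was not tested. Without TN B the TN change against controls was 0.22 (adjusted p = 0.34), and without TN C 0.52 (adjusted p = 0.038). DB minus TN was -0.44 without TN B (adjusted p = 0.08), no longer called, and -0.73 without TN C (adjusted p = 0.0041). With the replicate letter as a block in place of the set, this difference was -0.62 (adjusted p = 0.1) and not called.

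The ligand genes TGFB1 and TGFB2 passed no test against controls in the main fit, with library set as an additive term. TGFB1, the ligand with the higher level per kilobase, ran from 18.2 to 27.2 CPM in controls with a median of 23.1 CPM. Its lowest group was TK at 19.8, 17.5, 18 and 18.1 CPM, with a change of -0.22 (SE 0.13, adjusted p = 0.28). DB D at 36.5 CPM and SPH A at 34.0 CPM were the 2 highest libraries, each well above the rest of its group. TGFB1 shares exonic sequence on the opposite strand with HNRNPUL1, whose median was 8705 counts against 489 for TGFB1, and without a stated strand setting some of its reads cannot be told apart. TGFB2 ran from 3.78 to 10.7 CPM in controls with a median of 4.84 CPM. SPH libraries had 10.4, 12.1, 6.61 and 12.5 CPM, each above the controls of its own set. The SPH change was 0.52 (SE 0.17, adjusted p = 0.43), those in COM, DB and TN were 0.33, 0.28 and 0.34, and that in TK was 0.02. Under the alternatives the smallest adjusted p of TGFB2 in SPH was 0.031, which is a call. Within set 2, where TN C is the only TN library, the TN change was 0.87. TGFB2 also overlaps TGFB2-OT1, which had a median of 17 counts against 164.

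Between the 10 pairs of crystal forms, 13 of 100 comparisons of a member were called and 30 had an unadjusted p under 0.05. SMAD6 gave 6 of the 13, PMEPA1 4, SMAD3 2 and TGFBI 1, and the other 6 members gave none. COM and DB differed in 2 members (SMAD6 and PMEPA1), where 0.198% of all genes were called. COM and SPH differed in PMEPA1, where 0.544% of genes were called, and COM and TN in PMEPA1, where 5.03% were. COM and TK differed in PMEPA1, SMAD3 and SMAD6, where 14.5% were called. Among the dihydrates, DB and SPH differed in SMAD6 (0.247% of genes called), DB and TK in SMAD6 and SMAD3 (17.8%), DB and TN in SMAD6 and TGFBI (10.3%), and SPH and TK in SMAD6 (5.6%). SPH and TN (1.27%) and the 2 bipyramids, TK and TN (0.216%), differed in none by edgeR, with 2 members each at an unadjusted p under 0.05, and DESeq2 called 0 and 1 of them. The bipyramids' intervals (TK minus TN) for TGFBR1 (-0.41 to 0.01), PMEPA1 (-0.41 to 0.1) and SKIL (-0.41 to 0.03) include differences of either sign. Those for TGFBI (-0.95 to -0.09, adjusted p = 0.36) and SMAD6 (0.3 to 1.07, adjusted p = 0.14) do not, although neither difference passed after adjustment.

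Library set moved 3 members in untreated cells. In set 2 against set 1 controls, TGFBI was lower, at -1.79 on the log2 scale (SE 0.17, adjusted p = 2.9e-06), as were TGFB2 at -1.02 (SE 0.20, adjusted p = 0.0022) and PMEPA1 at -0.74 (SE 0.09, adjusted p = 4.9e-05). No other member was called, and 13.9% of all genes were. SMAD6 at -0.17 and TGFBR1 at -0.01 did not pass. Whether a crystal effect differed between sets 2 and 1 was tested for 4 forms, and 1 of 40 values was called, PMEPA1 in TN. The share of all genes called in that test was 0.0247% for COM, 0.0866% for DB and 0% for SPH, below the share in TN given above.

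The mean transcript length that the abundance estimates imply moves when the mix of isoforms moves, and it was tested with limma. None of 50 values (10 members in 5 forms) was called, with 5 at an unadjusted p under 0.05 and a smallest adjusted p of 0.35. Over all genes and forms 0.00434% were called. The length of SKIL ran from 3248 to 7009 nt and that of TGFB2 from 2443 to 5121 nt across libraries, so isoform estimates varied widely within groups too.

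A wider list of 85 other pathway genes, 75 of them tested, was counted by form and by role. In COM 13 rose and 1 fell, in DB 18 rose and 4 fell, in TK 5 rose and 16 fell, in TN 8 rose and 9 fell, and in SPH none passed. Of all genes tested, 3.94% were called higher and 2.42% lower in COM, and 5.92% and 4.1% in DB. These shares were 8.04% and 7.33% in TK and 6.84% and 4.88% in TN, and 0.111% were called in SPH in either direction. The list's median change was 0.12 in COM, 0.12 in DB, 0.06 in SPH, -0.04 in TK and -0.02 in TN. Of 24 target genes tested, 6 rose and 0 fell in COM, 8 rose and 3 fell in DB, 1 rose and 7 fell in TK, and 2 rose and 3 fell in TN. Of 10 ligands, 1 rose in COM, 2 rose in DB, 1 rose and 4 fell in TK, and 2 fell in TN. Of 10 receptors, 1 rose and 1 fell in COM and in DB, 1 fell in TK, and 1 rose and 2 fell in TN. Of 14 regulators, 2 rose in COM and in DB, 2 rose and 1 fell in TK, and 4 rose and 1 fell in TN. Calls within a role thus went in both directions in several forms. Of the 17 genes called in TN, 14 were still called without TN B and 13 without TN C.

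IL11, a cytokine induced by TGF-beta in epithelial tumours, went in opposite directions in different forms. Its controls ran from 1.29 to 6.15 CPM with set 2 the lowest, COM libraries had 9.48, 10.2, 2.77 and 6.42 CPM, and TK libraries had 1.05, 0.663, 0.241 and 0.712 CPM. All TK libraries lay below all controls, and the libraries of TK and of controls did not overlap for 15.1% of all genes tested, in either direction. Each COM library lay above the controls of its own set. IL11 rose in COM by 0.86 (SE 0.21, adjusted p = 0.011) and in DB by 0.69 (SE 0.21, adjusted p = 0.033), and it fell by 1.36 in TK (SE 0.29, adjusted p = 0.0022) and by 0.76 in TN (SE 0.22, adjusted p = 0.024). MMP2, a matrix protease, fell by 0.78 in TK and by 0.33 in TN, and the TN call was lost without TN B (-0.26, adjusted p = 0.13).

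FST, the secreted antagonist that binds activin, rose in COM by 0.35 (SE 0.09, adjusted p = 0.011), in DB by 0.64 (SE 0.08, adjusted p = 3.2e-05), in TK by 0.65 (SE 0.09, adjusted p = 2.5e-05) and in TN by 0.62 (SE 0.08, adjusted p = 3.5e-05). The SPH change of FST was 0.34 (SE 0.09, adjusted p = 0.19), close in size to that in COM, and did not pass. FST ran from 109 to 138 CPM in controls, and from 138 to 235 CPM in the 20 crystal libraries. Regulators gave smaller changes: SMURF1, a ubiquitin ligase for SMADs, rose by 0.32 in COM and 0.35 in DB, and NEDD4L, another such ligase, by 0.36 in TK and 0.27 in TN. USP15, a deubiquitinase, rose by 0.34 in DB and 0.26 in TN, the latter not called without TN C (0.15, adjusted p = 0.22). STRAP rose by 0.19 in COM, 0.25 in TK and 0.27 in TN, and the co-repressor SKI fell by 0.22 in TN.

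Among genes that store and activate latent TGF-beta, the integrin subunit ITGB8 rose by 0.54 in DB, and ITGB6 rose by 0.30 in COM and 0.24 in DB. LTBP2, which binds latent ligand in the matrix, rose by 0.29 in COM (adjusted p = 0.045) and fell by 0.48 in TK. Its relative LTBP3 fell by 0.50 in TK and by 0.31 in TN. Among receptors, the activin receptor ACVR2B fell by 0.38 in COM, by 0.35 in DB and by 0.32 in TN. The BMP receptor BMPR1A rose by 0.24 in TN, a call lost without TN C (0.20, adjusted p = 0.067). The ligand subunit INHBB fell by 0.95 in TK (adjusted p = 0.029) and by 1.30 in TN (SE 0.28, adjusted p = 0.0032). INHBB was a low transcript, with means of 1.63 CPM in controls, 0.92 in TK and 0.598 in TN.

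**Figure D4:**
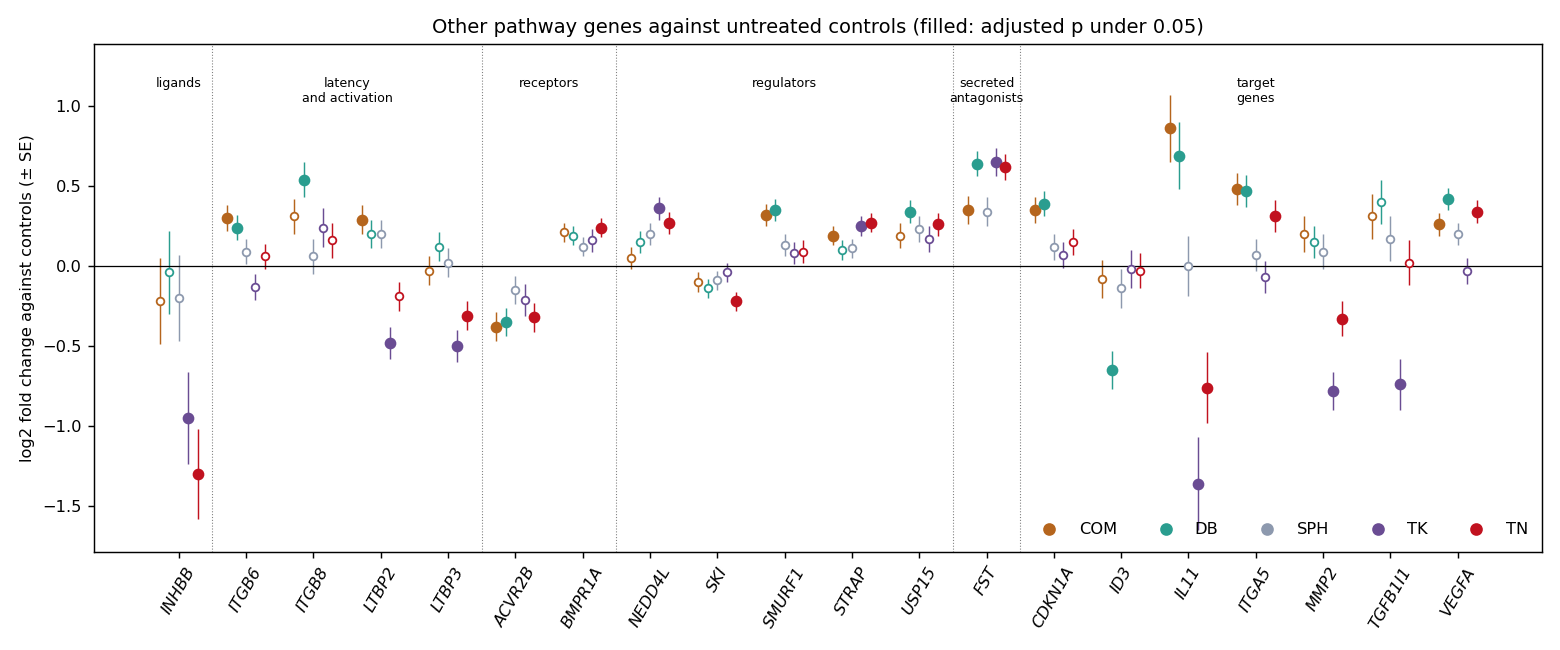
Log2 fold change against untreated controls for other pathway genes, grouped by role (x axis), in the 5 crystal forms (colours); bars are ± 1 SE and filled points have an adjusted p under 0.05. IL11 has filled points above 0 for COM and DB and below 0 for TK and TN, while FST has filled points above 0 for 4 forms.

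ID3, a target of the BMP branch that SMAD6 inhibits, fell in DB together with SMAD6. DB libraries had 16.5, 22.5, 22.9 and 19 CPM of ID3 against 25.7 to 42.6 CPM in controls, and the change was -0.65 (SE 0.12, adjusted p = 0.0011). The libraries of DB and of controls thus did not overlap, as for 3.79% of all genes tested. The related genes ID1 and ID2 did not pass in DB, at -0.03 (adjusted p = 0.91) and 0.17 (adjusted p = 0.47). Of the ligands, BMP6 and BMP2 were called higher in DB, at 0.90 (SE 0.24, adjusted p = 0.018) and 0.53 (SE 0.17, adjusted p = 0.044), while BMP4 at -0.68 (SE 0.23, adjusted p = 0.054) and BMP7 at -0.20 (adjusted p = 0.19) did not pass. VEGFA, an angiogenic factor, rose by 0.26 in COM, 0.42 in DB and 0.34 in TN. CDKN1A, a cell cycle inhibitor, rose by 0.35 in COM and 0.39 in DB. The fibronectin receptor subunit ITGA5 rose by 0.48 in COM, 0.47 in DB and 0.31 in TN, the last not called without TN C (0.26, adjusted p = 0.15). In TK, TGFB1I1 fell by 0.74. ID1, ID2, BMP2, BMP4, BMP6 and BMP7 were chosen for mention after their values were seen.

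The genes whose levels followed each member most closely over the 27 libraries, once the set coefficients were removed, are given as a description with no test. The points share their depth and their treatment groups, and 11126 genes were searched. The closest to SKIL was the integrin subunit gene ITGAV (r = 0.917), to SMAD3 TPCN1 (r = 0.913), to PMEPA1 PDZK1IP1 (r = 0.868), to TGFBR1 EDEM1 (r = 0.863) and to SMAD6 NF2 (r = 0.842). TGFB1 was followed most closely by HSF1 and SH3BGRL3 (r = 0.813 each), TGFBI by AC245297.4 (r = 0.786), TGFBR2 by NUDT21 (r = 0.781), SMAD7 by CASP1 (r = 0.781) and TGFB2 by PDP1 (r = 0.696). No member was among the 3 genes closest to another member.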

How the data were processed

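RNA-seq of 27 libraries of 1 cell line was analysed. Libraries were made from polyadenylated RNA with an NEBNext UltraExpress kit, per the labels' protocols. Expected counts, transcript lengths and effective lengths (nt, averaged over isoforms) are columns of the per-library tables that the authors deposited, per the file headers. Trim Galore, RSEM, Bowtie2 and GRCh38 are named in the submitters' processing notes. No version, annotation release or strand setting is stated there. RSEM divides reads that fit several genes, so overlapping genes and copies are uncertain.

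Expected counts were rounded to whole numbers. Low genes were removed with filterByExpr (6 groups) and libraries scaled by TMM (edgeR 4.0.16, R 4.3.3). A quasi-likelihood fit with group means and an additive library set term was made over all 27 libraries, and p-values were adjusted (Benjamini-Hochberg) over all 16173 genes. A second fit had a mean per group and set. The 95% intervals use the SE and 19 residual degrees of freedom. The labels do not say what a replicate letter stands for. Deviations from group means of libraries with the same letter correlated above 0.1 in every letter for 2 of 15 pairs of groups, controls with COM (0.16 to 0.51) and COM with SPH (0.37 to 0.47). Within a set the median correlation was 0.22 for the same letter (42 pairs) and 0.12 for other letters (62 pairs). A fit with the letter as a block in place of the set was therefore an alternative. Lengths were tested on the log2 scale with limma 3.58.1. DESeq2 1.42.0 was an alternative, beside other scalings, filters and subsets of libraries. Fits were tested on simulated data. Coordinates are from GENCODE 29 (GRCh38), which held 98.9% of the tested identifiers. Promoters are the first-listed RefSeq entry per gene.

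The members, lists, model and alternatives were chosen with earlier results of these data known. All members are named. Of the wider list, called genes are named up to 8 per form by adjusted p, and 1 such gene is not reported here. The 3 genes most like each member were taken by Pearson correlation of log2 CPM (prior count 2) among genes averaging 5 CPM or more. Precision is limited by 4 libraries per form, 1 or 2 of them per set except for TK.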

Additional observations from a re-analysis of the deposited data

Results flagged for a closer look

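The effect of thin bipyramids (TN) on PMEPA1 differed between library sets: set 2 minus set 1 was -0.63 on the log2 scale (SE 0.16, adjusted p = 0.032). Set 2 holds 1 TN library, TN C, at 24.2 CPM. The value thus sets that 1 library against TN A and B, and its error comes from the spread in other groups.

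In 5 of 60 combinations of a member and a group, 1 library lay far from the others by Dixon's criterion, where chance gives about 3. TGFB2 was high in TN A at 12.2 CPM, against 7.59 to 8.17 CPM in the other TN libraries. TGFBR1 was low in DB D at 17 CPM, against 21.9 to 22.4 CPM. SKIL was high in control B at 43.2 CPM, against 25.8 to 33.3 CPM. PMEPA1 was low in COM C at 36.6 CPM, against 72.5 to 75.5 CPM, and TGFBI was low in SPH C at 4.94 CPM, against 12.3 to 12.9 CPM. COM C and SPH C are the set 2 libraries of their forms, and the set 2 controls were lower than the set 1 controls in both genes. The causes were not tested.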

How the results depend on the processing

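Over 1790 values of a member against controls under an alternative, the sign changed in 85, of which 1 was a called value: PMEPA1 in TN was -0.04 with the set 2 libraries only (adjusted p = 0.87). Besides that value, a call was lost with the sign kept in 57 values, and a call was gained in 21. Against controls, the 3 members called in COM became 1 with no library set term, 1 with set 1 only, 0 with set 2 only and 5 with DESeq2. The 3 called in DB became 1 with set 1 only and 0 with set 2 only. These subsets have 1 or 2 libraries of a form. SPH had 0, and 1 with no low-count filter and with DESeq2. The 2 called in TN became 1 with no library set term, with only the form and controls in the fit, and with TN C placed in set 1. With set 1 only the TN count stayed at 2 but the members changed. PMEPA1 (adjusted p = 0.013) and TGFBI (adjusted p = 0.03) were called there, and TGFBR1 was not (0.33, adjusted p = 0.22). For controls of set 2 against set 1, the 3 called became 5 with no low-count filter.

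Leaving out 1 library at a time gave 1 to 4 called members in COM, 2 to 3 in DB, 0 in SPH, 0 to 1 in TK and 0 to 3 in TN. The joint test gave 5 to 7 (6 with all libraries), the pairs of forms 10 to 16 (13), the control sets 3 to 4 (3), the difference between sets 0 to 1 (1) and transcript length 0. COM fell to 1 without control A, COM B, COM C or COM D, and TN fell to 0 without TN A. The difference between sets for PMEPA1 in TN was lost without control A, control B, control E, TK A or TN A.

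With the letter as a replicate block in place of the set, the called members were 1 in COM, 2 in DB, 0 in SPH, 1 in TK (TGFBI, -1.07, adjusted p = 0.007), 0 in TN and 26 over the pairs of forms. The calls against controls lost under the block were TGFBR1 and SKIL in COM, SKIL in DB, and TGFBR1 and PMEPA1 in TN (PMEPA1 at 0.54, adjusted p = 0.081). Between forms, PMEPA1 was lost in COM against DB, SPH and TN, SMAD6 in DB against SPH, and TGFBI in DB against TN. Every call gained between forms involved TK, whose libraries all lie in set 2. The block fit has no set term, so form and set cannot be told apart in those calls. With the set 2 libraries only, TGFBI in TK was 0.01. The cause of these changes was not tested. Against controls, SMAD6 in DB and PMEPA1 in COM were called under every alternative run except set 2 only. There the changes were -1.05 and 0.56. Depth limits SMAD6 most, at 38 to 158 counts per library.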
